A study of Homo sapiens with 8 samples.

Results

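The actin, SRF and YAP response genes are 38 genes that encode parts of the contractile actin cytoskeleton, the transcription factors that sense its state, and target genes of those factors. They were chosen by name, with earlier results of these data known. For each, the brightest Affymetrix Human Genome U133 Plus 2.0 probe set over all arrays was read, among those annotated to exactly 1 gene symbol. Of the 38 genes, 37 had such a probe set, against 19775 genes on the whole array. All 37 passed the filter on dim signal, an intensity above the array's own median on at least 2 arrays, as did 14056 genes in all. The member listed as MKL1 carries its current symbol MRTFA below. FLNA, which encodes the crosslinker filamin A, had no probe set named for it alone and is not analysed here.

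H1 and H9 are established lines of human embryonic stem cells, and the study compared each line undifferentiated with the same line as embryoid bodies (EB), floating cell aggregates in which differentiation begins. There were 2 arrays in each of 4 groups, 8 arrays in all: undifferentiated H1 and undifferentiated H9 in mTeSR1 medium, and H1 EB and H9 EB of 3 days. EB came from cells taken apart with Accutase and kept on ultra low attachment plates in hESGM that lacked bFGF and held 10 µM Y-27632, an inhibitor of the kinases ROCK1 and ROCK2. The labels name no such compound for the undifferentiated cultures, so the differentiated state, the medium, the loss of attachment and the ROCK inhibitor cannot be told apart in any EB comparison here. The arrays of a group are labelled biological replicates without further detail on the cultures, so the p-values measure only the spread between these samples, which may be partly technical.

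In a spread cell, actin filaments pulled by myosin II and anchored at focal adhesions keep the coactivators YAP (YAP1) and TAZ (WWTR1) in the nucleus, where they bind DNA through TEAD factors, while the kinases LATS1 and LATS2 and the angiomotins hold them back. Polymerised actin also frees the coactivator MRTF from monomeric actin, and MRTF then drives genes with SRF, the serum response factor, which binds a sequence called the CArG box. The kinases ROCK1 and ROCK2 promote both routes by activating myosin and stabilising filaments, and inhibiting them is routinely done to keep dissociated human stem cells alive.

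All arrays had been scaled to 1 level, a trimmed mean of 500.1, with array medians of 68.7 to 86.1. Arrays of 1 group correlated at 0.991 to 0.992 (Pearson's r over genes, log2 scale), and arrays of 1 line in different states at 0.906 to 0.914. The chip's own control ratios of 3′ to 5′ signal lay between 0.848 and 0.965 for GAPDH and between 1.41 and 1.61 for ACTB. Of the 8 stem cell markers listed, 7 had a probe set and all 7 were above the array median on every array. Their summed intensity was 124100 to 125300 in undifferentiated H1, 79690 to 79800 in H1 EB, 115700 to 120600 in undifferentiated H9 and 90160 to 92580 in the arrays labelled H9 EB. The 6 endoderm markers went from 623.4 to 946.2 in the undifferentiated groups to 37230 to 58850 in EB, and all 6 rose. On 2 of the 8 arrays, both labelled H9 EB, 5 genes differed from undifferentiated cells of the labelled line. These genes were dim in undifferentiated H9 and lay above the array median on both arrays, having covered 18.4% to 31.6% of the gap to their H1 EB level. The 5 genes, CRYZ, CXCL11, TRIM61, TYW3 and ZNF680, were picked after their values were seen and are expressed in H1 in both states, and whether these 2 arrays hold some H1 RNA was not tested. They are called the arrays labelled H9 EB, and the value without them is given where it ends a call, turns a direction or moves a count by over 1.5 times. The size of a change in H1 uses neither of them. Its standard error and p-value in the main fit draw on the spread of all 8 arrays, these 2 included. A result in H9 EB cannot be had without them. In bulk samples such as these, fewer cells of a type and less RNA per cell cannot be told apart.

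Promoter windows from RefSeq (GRCh38.p14), 250 bases before to 50 after an annotated transcription start, were found for 33 of the 38 genes, with 57 windows in all. The following 6 are shown because their genes fell in EB (values below), ANKRD1 by its fitted value alone. These windows were picked also because they hold the sequences through which TEAD and SRF are known to act. Their matches are therefore no result about the falls. The window of CNN1, which fell as well, held neither sequence and is not shown. Capitals mark GGAATG, the core TEAD motif, which was searched on both strands (CATTCC on the other), in the first 2 windows and the CArG box in the other 4. The windows are chr6:131951323-131951622 (minus strand) for CCN2, chr10:90921038-90921337 (minus) for ANKRD1, chr6:43171019-43171318 (plus) for SRF, chr2:73892758-73893057 (plus) for ACTG2, chr19:1026358-1026657 (plus) for CNN2 and chr2:105399002-105399301 (minus) for FHL2, 1 window per gene, each printed 5′ to 3′ in the direction of the gene.
CCN2: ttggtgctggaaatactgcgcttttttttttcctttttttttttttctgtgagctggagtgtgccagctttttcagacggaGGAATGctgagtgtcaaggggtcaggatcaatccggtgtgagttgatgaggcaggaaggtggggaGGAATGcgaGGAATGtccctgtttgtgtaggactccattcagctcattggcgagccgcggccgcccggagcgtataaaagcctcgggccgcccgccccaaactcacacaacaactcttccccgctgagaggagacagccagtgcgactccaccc
ANKRD1: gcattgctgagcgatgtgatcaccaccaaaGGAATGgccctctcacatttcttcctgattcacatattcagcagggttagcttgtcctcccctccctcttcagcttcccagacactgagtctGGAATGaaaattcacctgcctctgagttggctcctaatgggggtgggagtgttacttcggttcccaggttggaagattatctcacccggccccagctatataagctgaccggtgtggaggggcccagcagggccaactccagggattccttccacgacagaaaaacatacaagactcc
SRF: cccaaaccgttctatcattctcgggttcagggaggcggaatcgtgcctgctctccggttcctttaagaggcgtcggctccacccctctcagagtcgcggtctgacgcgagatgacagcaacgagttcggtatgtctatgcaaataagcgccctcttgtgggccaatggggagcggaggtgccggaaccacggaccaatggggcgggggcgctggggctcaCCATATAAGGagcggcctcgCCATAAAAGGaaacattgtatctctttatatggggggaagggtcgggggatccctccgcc
ACTG2: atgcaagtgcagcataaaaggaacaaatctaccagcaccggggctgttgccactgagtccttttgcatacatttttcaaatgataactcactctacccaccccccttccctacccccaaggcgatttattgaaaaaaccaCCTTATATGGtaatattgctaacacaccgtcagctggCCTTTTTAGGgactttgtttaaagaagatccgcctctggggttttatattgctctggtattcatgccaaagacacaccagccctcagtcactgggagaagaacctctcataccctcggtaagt
CNN2: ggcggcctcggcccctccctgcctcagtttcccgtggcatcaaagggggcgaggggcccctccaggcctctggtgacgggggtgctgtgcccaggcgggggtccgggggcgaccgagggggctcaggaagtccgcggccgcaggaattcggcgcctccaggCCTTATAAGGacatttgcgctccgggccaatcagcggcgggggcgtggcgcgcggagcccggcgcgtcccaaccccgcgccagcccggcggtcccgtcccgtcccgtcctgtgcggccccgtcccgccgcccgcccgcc
FHL2: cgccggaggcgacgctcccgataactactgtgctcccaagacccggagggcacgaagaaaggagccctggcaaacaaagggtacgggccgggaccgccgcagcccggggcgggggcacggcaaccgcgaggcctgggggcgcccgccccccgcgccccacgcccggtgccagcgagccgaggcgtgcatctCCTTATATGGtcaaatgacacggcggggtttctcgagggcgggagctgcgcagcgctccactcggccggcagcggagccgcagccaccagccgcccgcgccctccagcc

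The CCN2 window held GGAATG at 3 places, beginning at -169, -104 and -95 from the start, and the ANKRD1 window at -220 and -128. SRF's window had 2 CArG boxes, CCATATAAGG at -30 and CCATAAAAGG at -10. ACTG2's window had CCTTATATGG at -110 and CCTTTTTAGG at -73, CNN2's had CCTTATAAGG at -89 and FHL2's had CCTTATATGG at -59. Over the list, 9 of 33 genes (27.3%) had a window with a CArG box, against 1.61% of all 27165 genes with a window. GGAATG was in a window of 16 of the 33 (48.5%), against 16.7% of all genes. By window, 19.3% of the members' 57 held a CArG box, against 1.3% of all 34941. For GGAATG the shares by window were 28.1% and 14%. The list was built to include targets of SRF and YAP, so shares above those of all genes were fixed in part by that choice. The CArG motif was in 6 of the 18 members with a window that fell in EB (33.3%) and 2 of the other 14 measured (14.3%), and GGAATG in 9 of the 18 (50%) and 7 of the 14 (50%). A match describes letters in a window and is no measure of binding.

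In EB, as the mean of both lines, 23 of the 37 members fell and 5 rose, while 9 did not pass the test (limma, Benjamini-Hochberg adjusted p under 0.05 over all genes tested). The shares were 62.2% lower and 13.5% higher, where 33.1% of all 14056 genes were lower and 35.4% higher. Since the members were chosen with earlier results of these data known, these shares describe the list and are no test of it. The median log2 change of the members was -0.24 against 0.01 for all genes. Changes are differences of log2(intensity + 16), which understates the change of dim genes. By at least 1 on the log2 scale 8 members fell and 0 rose, and 3.61% of all genes fell and 10.2% rose that far. The 8 were CCN2, CCN1, CNN1, TEAD4, FHL2, CNN2, ACTG2 and, by its fitted value alone, ANKRD1, which was not above the array median on any EB array. ANKRD1 passed the filter only through undifferentiated arrays, so its place among the 23 and the 8 was partly set by the filter. On all 4 EB arrays 16 members (43.2%) lay below all 4 undifferentiated arrays, which held for 24.5% of all genes, and YAP1 and AMOTL1 (5.41% of the members) lay above, which held for 27.1%. When each array was centred on its own median, a scaling that moved the median of all genes to -0.19, 31 members were lower and 3 higher, against 46.8% and 24.7% of all genes, and the members' median was -0.44. Without the arrays labelled H9 EB, 24 members were lower and 3 higher, against 27.9% and 28.7% of all genes. That fit gives the EB change of H1 alone, and AXL (-0.32, adjusted p = 0.0084), TAGLN2 (-0.39, 0.0204), TPM2 (-0.22, 0.0294) and MYH10 (-0.26, 0.00222) were called lower in it but not in the mean of both lines.

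With arrays centred, further calls appeared within a line, all of lower signal in EB. The EB arrays had the higher medians, so centring lowered every EB change and favoured lower calls in advance. In H1 they were those of WWTR1 (-0.20, adjusted p = 0.0482), TEAD1 (-0.21, 0.00915) and ROCK1 (-0.19, 0.0195), and in H9 those of AMOTL2 (-0.36, 0.000614), MYLK (-0.32, 0.00451), ACTN1 (-0.36, 0.00106) and ROCK1 (-0.33, 0.000654), beside those given with their genes below.

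**Figure D1:**
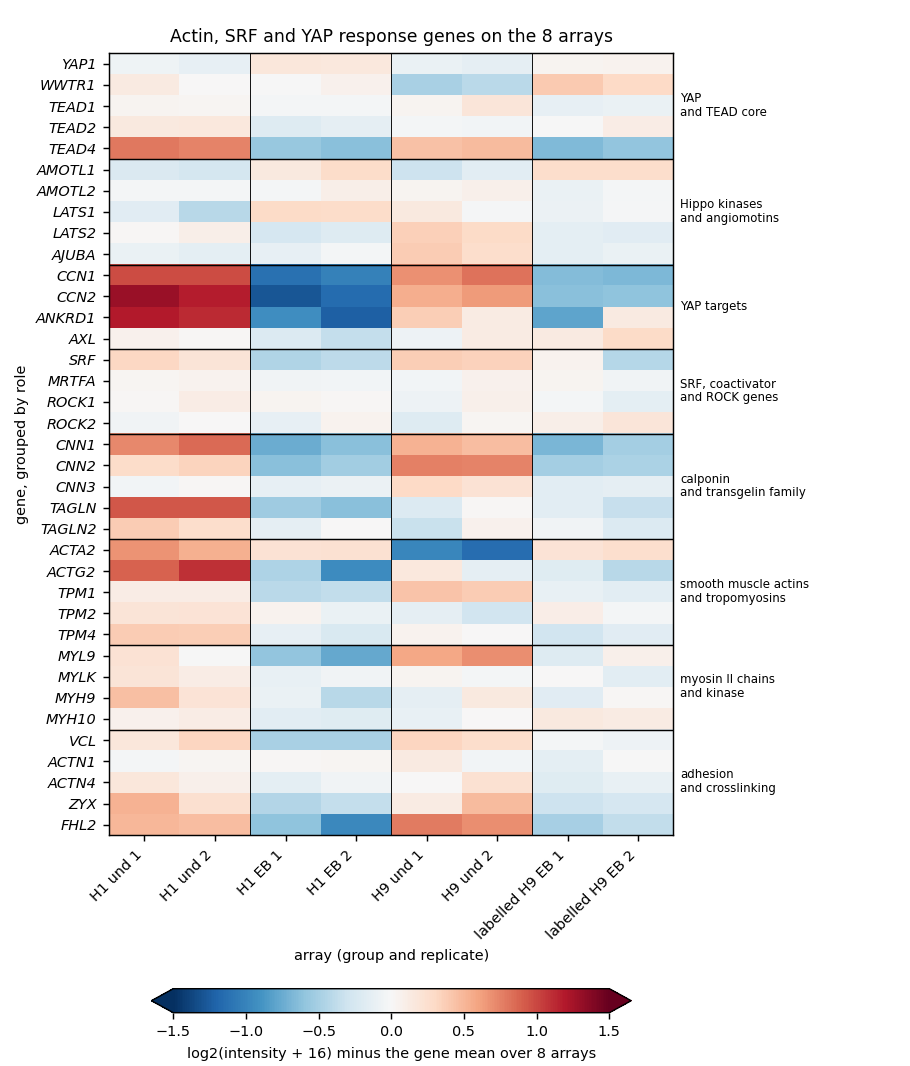
Heat map of the 37 measured members (rows, grouped by role) on the 8 arrays (columns). Colour is log2(intensity + 16) minus the gene's mean over all arrays, red higher and blue lower; CCN1, CCN2, TEAD4, CNN1, CNN2 and FHL2 are red on the 4 undifferentiated arrays and blue on the 4 EB arrays, and ACTA2 is blue only in undifferentiated H9.

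The biggest falls among the members were those of the direct YAP targets CCN2 and CCN1. CCN2 encodes connective tissue growth factor, a secreted matrix-associated protein and the most used readout of YAP activity. Its intensity was 7185 and 6659 in undifferentiated H1, 1194 and 1310 in H1 EB, 4299 and 4581 in undifferentiated H9, and 1895 and 1927 on the arrays labelled H9 EB. Every EB array lay far below every undifferentiated one, and undifferentiated H1 was highest. The change was -1.83 ± 0.047 (log2, SE of the fit, 2 arrays per group; limma adjusted p = 7.27e-11), with -2.45 in H1 and -1.21 in H9.

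CCN1, which encodes CYR61, a sister matrix-associated protein, had 4322 and 4320 in undifferentiated H1, 990.1 and 1071 in H1 EB, 3506 and 3835 in undifferentiated H9, and 1381 and 1359 on the arrays labelled H9 EB. The states did not overlap here either. It fell by 1.73 ± 0.047 (log2; limma adjusted p = 1.16e-10), with -2.05 in H1 and -1.41 in H9, and its other probe set fell as well, by 1.66. ANKRD1, a repressor protein of muscle nuclei and sarcomeres and a second classic YAP target, was dim: 148 and 140.1 in undifferentiated H1, 21.5 and 14.7 in H1 EB, 76.5 and 62.3 in undifferentiated H9, and 25.5 and 62.7 on the arrays labelled H9 EB. Only undifferentiated H1 and 1 array of undifferentiated H9 were above their array's median, so ANKRD1 in EB has only a bound. Undifferentiated H1 was at least 1.71-fold above that bound in H1 EB, and the 4 undifferentiated arrays together at least 1.18-fold. Its fitted change was -1.41 ± 0.25 (log2; limma adjusted p = 0.00036), -2.24 in H1 and -0.57 in H9 (adjusted p = 0.176; -1.04 and 0.0384 without replicate 2 of the arrays labelled H9 EB).

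The fourth YAP target, the receptor tyrosine kinase gene AXL, did not follow them. AXL was at 2366 and 2303 in undifferentiated H1, 1974 and 1773 in H1 EB, 2158 and 2476 in undifferentiated H9, and 2492 and 2772 on the arrays labelled H9 EB, so the states overlapped. Its mean change was -0.07 ± 0.059 (log2; limma adjusted p = 0.341; -0.26 and 0.00149 with arrays centred on their medians). In H1 it fell by 0.32 (adjusted p = 0.00728; 0.0717 without H1 EB replicate 2), and in H9 the change was 0.18 (adjusted p = 0.0793; 0.0239 without undifferentiated H9 replicate 2 and 0.0393 after quantile normalisation).

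**Figure D2:**
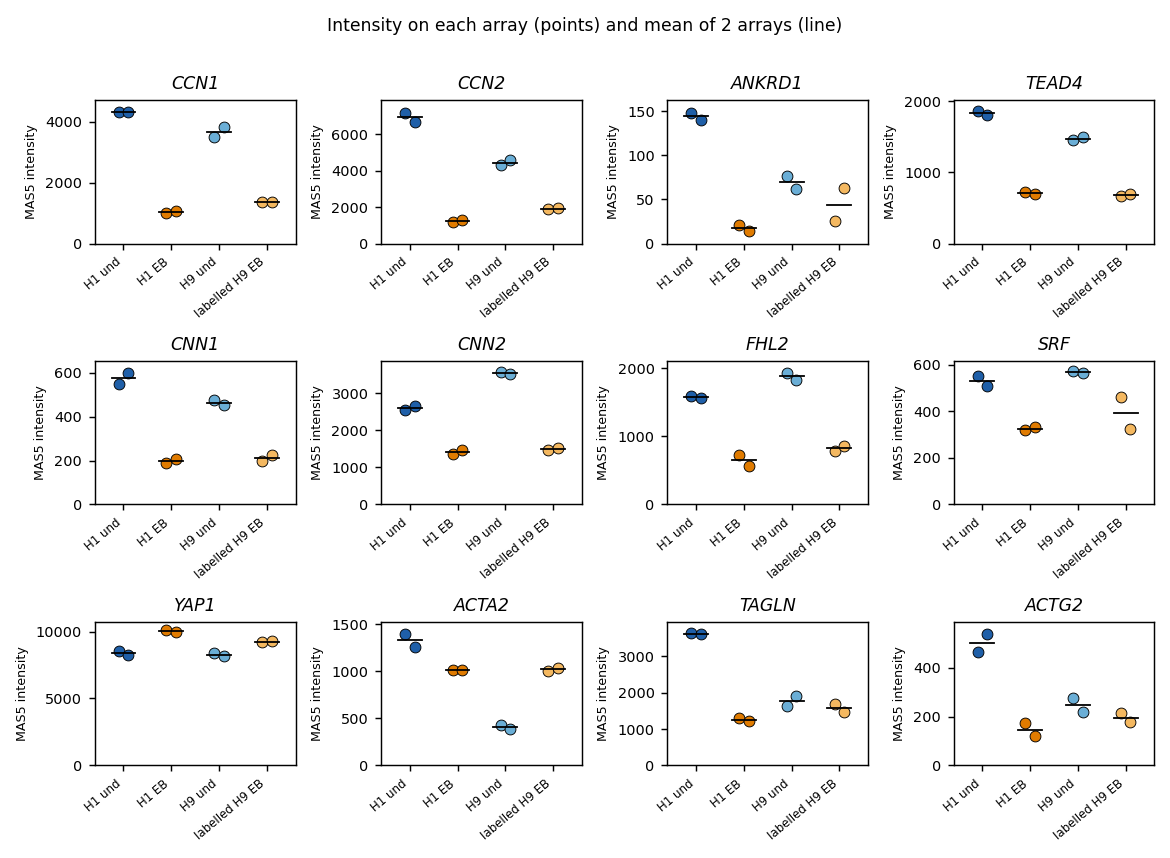
Intensity (MAS5, linear axis from 0) of 12 members on each of the 8 arrays, points, with the mean of the 2 arrays of a group as a line. CCN1, CCN2, TEAD4, CNN1, CNN2, FHL2 and SRF are lower in EB of both lines, YAP1 is higher in both on this scaling (not with arrays centred on their medians), and ACTA2 is lower in H1 EB than in undifferentiated H1 (near 1015 against 1330) and higher on the arrays labelled H9 EB than in undifferentiated H9.

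Of the 5 genes of the YAP and TEAD core, the coactivators rose in the mean of both lines, YAP1 on the deposited scaling but not with arrays centred on their medians, and the 3 TEAD genes fell. YAP1 was at 8566 and 8215 in undifferentiated H1, 10090 and 9966 in H1 EB, 8378 and 8146 in undifferentiated H9, and 9202 and 9280 on the arrays labelled H9 EB. All 4 EB arrays were above all 4 undifferentiated ones, by a small margin. The rise was 0.21 ± 0.033 (log2; limma adjusted p = 0.000155), 0.26 in H1 and 0.16 in H9, and its other 2 probe sets rose by 0.46 and 0.78. With the arrays centred on their medians the YAP1 change was 0.01 (adjusted p = 0.791; 1.3e-06 to 0.791 over 19 alternatives). The H9 change of YAP1 lost its call without replicate 2 of the arrays labelled H9 EB (adjusted p = 0.0595).

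WWTR1, which encodes TAZ, read 1561 and 1435 in undifferentiated H1, 1423 and 1486 in H1 EB, 1011 and 1078 in undifferentiated H9, and 1881 and 1759 on the arrays labelled H9 EB. Undifferentiated H9 was lowest and the arrays labelled H9 EB highest, with H1 between and overlapping between its states. Its mean rise of 0.38 ± 0.053 (log2; limma adjusted p = 6.57e-05) came from H9, at 0.79, where H1 gave -0.04 (adjusted p = 0.665). Without the arrays labelled H9 EB the change was -0.04 (adjusted p = 0.683; 5.35e-05 to 0.683 over 19 alternatives), and 1 of its 3 tested probe sets fell, by 0.33.

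TEAD4, the TEAD factor best known from the trophoblast lineage, had 1859 and 1804 in undifferentiated H1, 719 and 690 in H1 EB, 1455 and 1492 in undifferentiated H9, and 669 and 702 on the arrays labelled H9 EB. The EB arrays of the lines overlapped, and undifferentiated H1 was above undifferentiated H9. It fell by 1.22 ± 0.051 (log2; limma adjusted p = 3.59e-09), with -1.36 in H1 and -1.09 in H9. TEAD1 spanned 3892 to 4351 on the undifferentiated arrays and 3509 to 3753 on the EB arrays, without overlap, and changed by -0.14 ± 0.041 (limma adjusted p = 0.00995). That call was lost under quantile normalisation (adjusted p = 0.241), without the arrays labelled H9 EB (0.452) and without a term for the line (0.0621), in a range of 1.51e-05 to 0.452. TEAD2 spanned 1731 to 2214 over all arrays with overlapping states. Its change of -0.12 ± 0.045 (limma adjusted p = 0.0394) kept its call under 8 of 19 alternatives (adjusted p from 0.000135 to 0.275). Leaving out any 1 array except replicate 2 of those labelled H9 EB also ended it, with adjusted p between 0.0506 and 0.16.

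Of the 5 Hippo kinases, adaptors and angiomotins, AMOTL1 and LATS1 rose, LATS2 and AJUBA fell, and AMOTL2 did not pass the test. AMOTL1, an angiomotin that binds YAP and actin, was at 1235 and 1191 in undifferentiated H1, 1589 and 1745 in H1 EB, 1152 and 1286 in undifferentiated H9, and 1727 and 1730 on the arrays labelled H9 EB. All EB arrays were above all undifferentiated arrays, and the lines overlapped in the undifferentiated state. The rise was 0.48 ± 0.055 (log2; limma adjusted p = 1.28e-05), 0.45 in H1 and 0.50 in H9, and the mean was called under all 19 alternatives. AMOTL2, its relative and itself a known YAP target, spanned 2333 to 2656 with a change of -0.03 ± 0.043 (limma adjusted p = 0.561; -0.23 and 0.00113 with arrays centred).

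LATS2 was at 1745 and 1829 in undifferentiated H1, 1447 and 1509 in H1 EB, 2204 and 2113 in undifferentiated H9, and 1558 and 1533 on the arrays labelled H9 EB. Its EB arrays lay below every undifferentiated array. LATS2 fell by 0.37 ± 0.045 (log2; limma adjusted p = 1.9e-05), with -0.27 in H1 and -0.48 in H9. Its paralog LATS1 was at 939.5 and 788.5 in undifferentiated H1, 1291 and 1284 in H1 EB, 1171 and 1039 in undifferentiated H9, and 990.5 and 1041 on the arrays labelled H9 EB. Here H1 rose and the H9 groups lay close together with 1 array of each state nearly equal. The mean rise of LATS1, 0.23 ± 0.068 (limma adjusted p = 0.0112), was 0.57 in H1 and -0.12 in H9 (adjusted p = 0.309; -0.36 and 0.00943 with arrays centred). The LATS1 call on the mean was lost with arrays centred on their medians (0.03, adjusted p = 0.729), with all probe sets averaged (0.378) and without a term for the line (0.174), in a range from 0.000799 to 0.729.

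AJUBA, a LIM protein that binds LATS kinases at junctions, was at 2150 and 2084 in undifferentiated H1, 2112 and 2271 in H1 EB, 3017 and 2781 in undifferentiated H9, and 2085 and 2152 on the arrays labelled H9 EB. The level in undifferentiated H9 stood above all 6 other arrays, which overlapped. The mean fall of 0.20 ± 0.046 (log2; limma adjusted p = 0.00249) came from H9, at -0.45, with 0.05 in H1 (adjusted p = 0.551). Without the arrays labelled H9 EB the AJUBA change was 0.05 (adjusted p = 0.578), with all probe sets averaged -0.12 (0.261) and without a term for the line -0.20 (0.166), and the range over alternatives was 2.4e-05 to 0.578.

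Of SRF, its coactivator and the ROCK genes, only SRF passed the test. SRF was at 548.9 and 507.8 in undifferentiated H1, 319 and 331 in H1 EB, 572 and 563 in undifferentiated H9, and 459.7 and 325 on the arrays labelled H9 EB. All EB arrays were below all undifferentiated arrays, and the spread was widest on the arrays labelled H9 EB. It fell by 0.60 ± 0.10 (log2; limma adjusted p = 0.000291), with -0.67 in H1 and -0.54 in H9, and the mean was called under all 19 alternatives. The H9 fall was not called without replicate 2 of the arrays labelled H9 EB (-0.29, adjusted p = 0.0831). MRTFA, the actin-bound SRF coactivator, had a narrow span of 335 to 366 over all 8 arrays (-0.05 ± 0.080, limma adjusted p = 0.593; -0.25 with arrays centred and -0.22 after quantile normalisation, adjusted p = 0.0168 and 0.0267).

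ROCK1 and ROCK2 encode the kinases that Y-27632 inhibits. ROCK1 spanned 3801 to 4326 in the undifferentiated groups and 3630 to 4130 in EB, and ROCK2 800.3 to 937.3 and 845.5 to 1041. The states overlapped for both. ROCK1 changed by -0.06 ± 0.047 (log2; limma adjusted p = 0.265; -0.26 and 0.000204 with arrays centred) and ROCK2 by 0.10 ± 0.069 (0.209), which was called under 0 of 19 alternatives. The ROCK2 change in H9 was 0.22 (adjusted p = 0.0715; 0.0219 without undifferentiated H9 replicate 2).

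The calponins and transgelins are actin-binding proteins, of which CNN1 and TAGLN are known as markers of smooth muscle and as SRF targets. In the mean of both lines 4 of the 5 fell, where 33.1% of all genes were lower. CNN1 was at 548.5 and 601 in undifferentiated H1, 188 and 206 in H1 EB, 475 and 453 in undifferentiated H9, and 196 and 224 on the arrays labelled H9 EB. EB arrays of the lines overlapped, well below all undifferentiated arrays. It fell by 1.28 ± 0.088 (log2; limma adjusted p = 2.06e-07), with -1.47 in H1 and -1.09 in H9.

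CNN2, the calponin found in many non-muscle cells, was at 2538 and 2658 in undifferentiated H1, 1357 and 1464 in H1 EB, 3572 and 3525 in undifferentiated H9, and 1476 and 1513 on the arrays labelled H9 EB. All EB arrays were below all undifferentiated arrays, and undifferentiated H9 was highest. CNN2 fell by 1.06 ± 0.044 (log2; limma adjusted p = 3.64e-09), with -0.87 in H1 and -1.24 in H9, read by a probe set of the x_at kind, whose probes can match other transcripts. CNN3, a further non-muscle calponin, was at 7647 and 7978 in undifferentiated H1, 7197 and 7410 in H1 EB, 9695 and 9126 in undifferentiated H9, and 7011 and 7172 on the arrays labelled H9 EB. It fell by 0.25 ± 0.036 (limma adjusted p = 7.68e-05), with -0.41 in H9 and -0.10 in H1 (adjusted p = 0.126; -0.25 and 0.00248 with arrays centred), and was not called without the arrays labelled H9 EB (0.158; range 7.4e-07 to 0.158).

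TAGLN encodes SM22 alpha, a widely used readout of SRF and MRTF. It was at 3632 and 3612 in undifferentiated H1, 1297 and 1218 in H1 EB, 1634 and 1916 in undifferentiated H9, and 1698 and 1481 on the arrays labelled H9 EB. Undifferentiated H1 stood far above the other 6 arrays, and the H9 states overlapped. TAGLN fell by 0.84 ± 0.063 (log2; limma adjusted p = 4.02e-07) in the mean, with -1.51 in H1 and -0.16 in H9 (adjusted p = 0.148; -0.27 and 0.0315 without undifferentiated H9 replicate 1, and -0.40 and 0.00116 with arrays centred).

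TAGLN2, its relative outside muscle, spanned 1931 to 2097 in undifferentiated H1, 1458 to 1608 in H1 EB, 1274 to 1684 in undifferentiated H9 and 1394 to 1540 on the arrays labelled H9 EB. Again only undifferentiated H1 stood apart. The mean TAGLN2 change was -0.20 ± 0.084 (limma adjusted p = 0.0597), with -0.39 in H1 (0.0161; 0.0927 without undifferentiated H1 replicate 1 and 0.102 without H1 EB replicate 1). The mean reached adjusted p = 0.00223 without undifferentiated H9 replicate 1, 0.034 after quantile normalisation and 0.00112 with arrays centred, in a range of 0.00112 to 0.249.

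The smooth muscle actins differed from each other and between lines. ACTA2, alpha smooth muscle actin, was at 1398 and 1261 in undifferentiated H1, 1012 and 1018 in H1 EB, 433.9 and 383.6 in undifferentiated H9, and 1005 and 1036 on the arrays labelled H9 EB. All 4 EB arrays lay between 1005 and 1036, undifferentiated H1 above them and undifferentiated H9 far below. ACTA2 therefore fell by 0.38 in H1 (limma adjusted p = 0.00343) and rose by 1.29 in H9 (4.14e-07), and its mean of 0.45 ± 0.063 (6.23e-05) describes neither line. Without the arrays labelled H9 EB the change was -0.38 (adjusted p = 0.00663). The mean was not called when all probe sets were averaged (0.221), where its other 2 probe sets were above the array median on 0 arrays, or without a term for the line (0.366), in a range of 5.41e-05 to 0.366.

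ACTG2, the gamma actin of visceral smooth muscle, was at 464.9 and 537.9 in undifferentiated H1, 172 and 119 in H1 EB, 275 and 220.4 in undifferentiated H9, and 213 and 178 on the arrays labelled H9 EB. All EB arrays were below all undifferentiated arrays, and undifferentiated H1 was highest. ACTG2 fell by 1.01 ± 0.13 (log2; limma adjusted p = 4.28e-05), with -1.70 in H1 and -0.31 in H9 (adjusted p = 0.173). The H9 change of ACTG2 was called after quantile normalisation (-0.54, 0.029) and with arrays centred (-0.55, 0.019).

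Tropomyosins wrap along actin filaments. TPM1 was at 11870 and 11880 in undifferentiated H1, 8275 and 8485 in H1 EB, 14800 and 14230 in undifferentiated H9, and 10140 and 9829 on the arrays labelled H9 EB. Every EB array was below every undifferentiated one. It fell by 0.52 ± 0.032 (log2; limma adjusted p = 8.59e-08), with -0.50 in H1 and -0.54 in H9. TPM1 had 5 tested probe sets, and 4 fell. The other rose by 0.63 ± 0.15 (limma adjusted p over probe sets = 0.00373), with 236 and 137 in undifferentiated H1, 276 and 224.5 in H1 EB, 220 and 215 in undifferentiated H9, and 381 and 415 on the arrays labelled H9 EB, so that its H1 arrays overlapped and its H9 arrays did not.

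TPM4 spanned 1463 to 1904 in the undifferentiated groups and 1191 to 1333 in EB, without overlap. It fell by 0.40 ± 0.050 (log2; limma adjusted p = 2.42e-05), with -0.55 in H1 and -0.26 in H9, the H9 value not called without replicate 1 of the arrays labelled H9 EB (-0.20, adjusted p = 0.0795). TPM2 was at 3852 and 3900 in undifferentiated H1, 3509 and 3150 in H1 EB, 3088 and 2756 in undifferentiated H9, and 3632 and 3304 on the arrays labelled H9 EB. It moved opposite ways, down by 0.22 in H1 (limma adjusted p = 0.0272) and up by 0.25 in H9 (0.0152), with a mean of 0.01 ± 0.054 (0.84). Leaving out single arrays ended the H1 call of TPM2 without undifferentiated H1 replicate 1 (0.0764) or 2 (0.0972) or H1 EB replicate 2 (0.21), as did quantile normalisation (-0.15, 0.105), and ended the H9 call without undifferentiated H9 replicate 2 (0.12) or replicate 1 of the arrays labelled H9 EB (0.13). Its second tested probe set rose by 0.75.

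**Figure D3:**
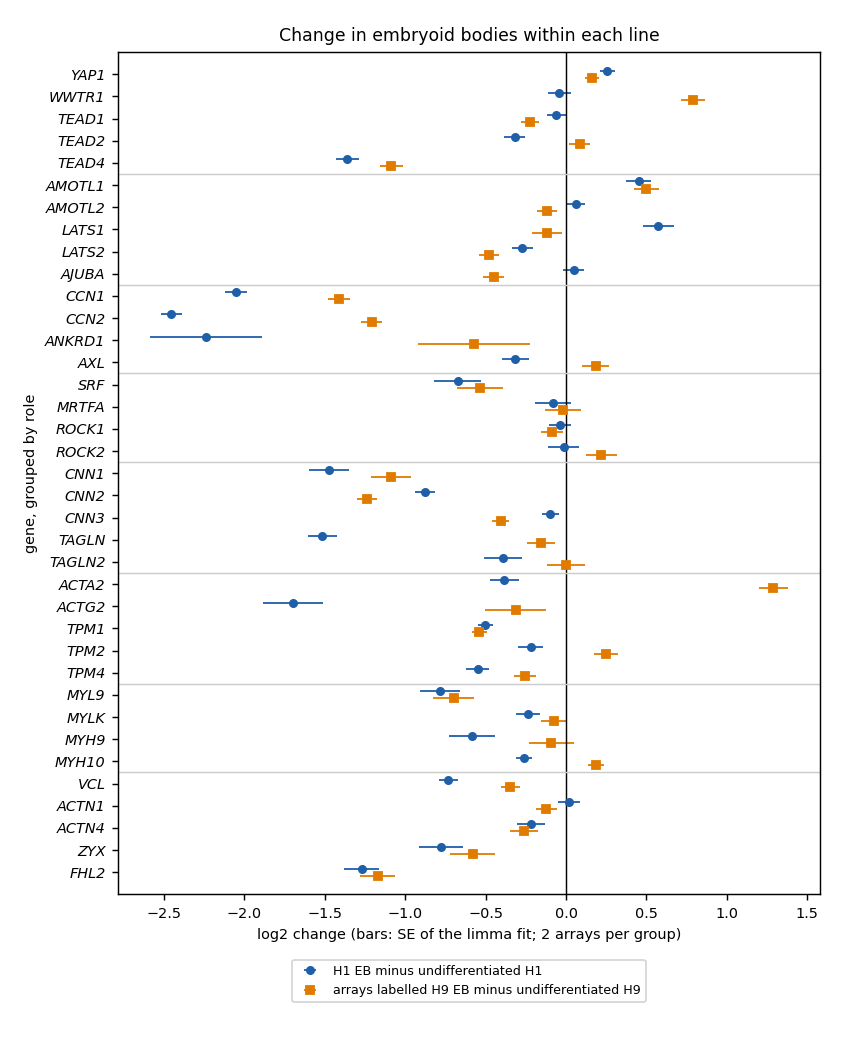
Log2 change from undifferentiated cells to EB (x axis) for the 37 measured members, circles for H1 and squares for H9, with the standard error of the limma fit as bars (2 arrays per group). CCN2, TAGLN and ACTG2 lie farther left in H1 than in H9, and ACTA2 and WWTR1 lie right of 0 in H9 only.

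Myosin II chains and their kinase supply the contraction that ROCK kinases control. MYL9, the regulatory light chain that ROCK signalling phosphorylates, was at 615 and 526 in undifferentiated H1, 346 and 303 in H1 EB, 801.5 and 864 in undifferentiated H9, and 459.5 and 558 on the arrays labelled H9 EB. Both lines were lower in EB, and H9 was above H1 in each state, so that 1 array labelled H9 EB was above the lower of the undifferentiated H1 arrays. MYL9 fell by 0.74 ± 0.089 (log2; limma adjusted p = 1.98e-05), with -0.78 in H1 and -0.70 in H9.

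MYH9, the heavy chain of non-muscle myosin IIA, spanned 768.7 to 918 in undifferentiated H1, 495 to 620.5 in H1 EB, 607 to 742 in undifferentiated H9 and 588 to 673 on the arrays labelled H9 EB. H1 separated by state and H9 overlapped. Its mean fall was 0.34 ± 0.10 (log2; limma adjusted p = 0.0112), with -0.59 in H1 and -0.09 in H9 (0.6), and 0.0542 without a term for the line (range 0.00038 to 0.0542). MYLK, myosin light chain kinase, spanned 1366 to 1593 in the undifferentiated groups and 1251 to 1405 in EB, and changed by -0.16 ± 0.054 (0.0235). MYLK was called under 12 of 19 alternatives (adjusted p from 0.000125 to 0.629). The calls lost included those without undifferentiated H1 replicate 1 (0.074), H1 EB replicate 1 (0.0721), undifferentiated H9 replicate 1 (0.065) and replicate 2 of the arrays labelled H9 EB (0.105). Its H1 call (adjusted p = 0.0208) was likewise lost without undifferentiated H1 replicate 1 (0.112) or either H1 EB array (0.105 and 0.0506).

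MYH10, the heavy chain of non-muscle myosin IIB, was at 15270 and 15830 in undifferentiated H1, 13060 and 12870 in H1 EB, 13520 and 14700 in undifferentiated H9, and 16220 and 15910 on the arrays labelled H9 EB. H1 fell and H9 rose, with no overlap of states in either line. The changes were -0.26 in H1 (limma adjusted p = 0.000959; -0.03 and 0.684 after quantile normalisation) and 0.19 in H9 (0.00715; 0.0548 without undifferentiated H9 replicate 1), and the mean -0.04 ± 0.036 (0.376). The mean MYH10 change was 0.16 (0.00184) after quantile normalisation and -0.23 (5.74e-05) with arrays centred on their medians, so its direction depended on the scaling. Its second tested probe set fell by 0.78.

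Among the adhesion and crosslinking genes 4 of the 5 measured fell in the mean of both lines, where 33.1% of all genes were lower. FHL2, a LIM protein that shuttles between adhesions and nucleus and binds SRF, was at 1594 and 1558 in undifferentiated H1, 733.5 and 566 in H1 EB, 1935 and 1824 in undifferentiated H9, and 791 and 863 on the arrays labelled H9 EB. The states stood far apart in both lines. It fell by 1.22 ± 0.077 (log2; limma adjusted p = 1.09e-07), with -1.27 in H1 and -1.17 in H9.

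ZYX, the focal adhesion protein zyxin, was at 704.5 and 576 in undifferentiated H1, 355.5 and 375 in H1 EB, 532 and 685 in undifferentiated H9, and 389.5 and 408 on the arrays labelled H9 EB. All EB arrays were below all undifferentiated arrays, whose replicates differed from each other. ZYX fell by 0.68 ± 0.097 (log2; limma adjusted p = 7.93e-05), with -0.78 in H1 and -0.58 in H9. VCL, vinculin, which links talin to actin at adhesions, was at 10350 and 11560 in undifferentiated H1, 6589 and 6579 in H1 EB, 11560 and 11070 in undifferentiated H9, and 9052 and 8742 on the arrays labelled H9 EB. The states did not overlap, and H1 EB was lowest. VCL fell by 0.54 ± 0.041 (limma adjusted p = 4.37e-07), with -0.73 in H1 and -0.35 in H9. Its call was lost only when all probe sets were averaged (-0.12, adjusted p = 0.578; range 9.49e-09 to 0.578), where its second probe set was above the array median on 0 arrays.

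The actinins crosslink actin filaments. ACTN4 spanned 1273 to 1491 in the undifferentiated groups and 1121 to 1227 in EB, without overlap. It fell by 0.24 ± 0.062 (log2; limma adjusted p = 0.00484), with -0.22 in H1 (0.0513; -0.37 and 0.0034 with arrays centred, -0.26 and 0.0195 after quantile normalisation) and -0.26 in H9 (0.023), and without the arrays labelled H9 EB its adjusted p was 0.0651 (range 5.1e-05 to 0.0651). The H9 call of ACTN4 was lost without undifferentiated H9 replicate 2 (0.186) or either array labelled H9 EB (0.115 and 0.051). ACTN1 spanned 9364 to 11400 with overlapping states and changed by -0.05 ± 0.047 (limma adjusted p = 0.354), while its other 2 tested probe sets, both of the x_at kind, fell by 0.24 and 0.40. Its mean change was 0.12 (0.0256) after quantile normalisation and -0.25 (0.00105) with arrays centred, so its direction too depended on the scaling.

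The members had 101 single-symbol probe sets, of which 72 passed the filter. Of the 72, 46 fell, 11 rose and 15 did not pass the test, where 30% of all 25802 tested probe sets were lower and 33.4% higher. There were 23 members with 2 or more tested probe sets, and 2 of them, TPM1 and WWTR1, had probe sets called in both directions. With all probe sets of a gene averaged, dim ones included, calls within a line were lost for AMOTL1, ACTA2, TPM4 and VCL in both lines, for LATS1, LATS2, TEAD2, AXL, MYL9 and MYLK in H1 and for AJUBA in H9.

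**Figure D4:**
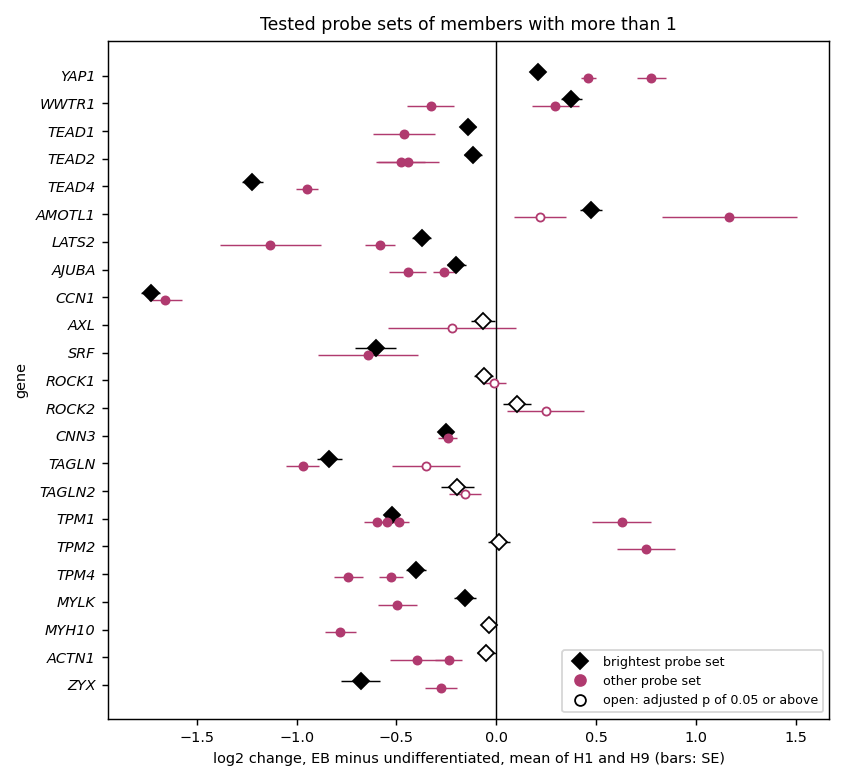
Log2 change in EB (mean of H1 and H9, x axis; bars are standard errors of the limma fit) for every tested probe set of the 23 members that have more than 1; black diamonds are the brightest probe set and circles the others, open where the adjusted p is 0.05 or above. TPM1 and WWTR1 have filled symbols on both sides of 0, and TPM2, MYH10 and ACTN1 have an open brightest probe set beside at least 1 filled other one.

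By line, 24 members fell and 3 rose in H1, where 28.1% of all genes were lower and 29.6% higher, and 17 fell and 6 rose in H9, where 29% were lower and 31.6% higher. In both lines 13 members were lower (19.8% of all genes) and 2, YAP1 and AMOTL1, higher (22.3%). ACTA2, TPM2 and MYH10 were called in opposite directions, as were 2% of all genes. With arrays centred on their medians the H9 changes of YAP1, MYH10 and TPM2 were -0.08, -0.05 and 0.01, none of them called, and after quantile normalisation neither the H1 change of MYH10 nor that of TPM2 was called. The 13 were TEAD4, LATS2, CCN1, CCN2, SRF, CNN1, CNN2, TPM1, TPM4, MYL9, VCL, ZYX and FHL2.

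The EB effect itself differed between lines for 16 members by a test of the interaction: it was higher in H9 for 12 and lower for 4, against 11.5% and 11.2% of all genes. Among members above the array median, the biggest interactions were those of ACTA2 (1.67 ± 0.13), ACTG2 (1.38 ± 0.27), TAGLN (1.36 ± 0.13) and CCN2 (1.24 ± 0.094), with limma adjusted p between 2.63e-05 and 0.00453. With all probe sets averaged the interaction was 0.52 for ACTA2 (0.337) and 0.78 for ACTG2 (0.106). ANKRD1, dim in EB of both lines, had an interaction of no exact size, whose adjusted p of 0.0331 was lost without any 1 of the arrays other than replicate 1 of those labelled H9 EB, with adjusted p from 0.0574 to 0.118. These tests rest on the arrays labelled H9 EB and cannot be made without them.

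The lines also differed before EB formation, in a comparison that uses no EB array but shares its undifferentiated arrays with the interaction. Between undifferentiated lines 17 members differed, 10 lower and 7 higher in H9, against 12.5% and 13.7% of all genes. ACTA2 was lower in H9 by 1.66 ± 0.089 (limma adjusted p = 5.73e-07), TAGLN by 1.03 ± 0.088 (1.8e-05), ACTG2 by 0.98 ± 0.19 (0.00362) and CCN2 by 0.64 ± 0.067 (6.86e-05). Higher in H9 were MYL9 (0.54 ± 0.13; 0.01), AJUBA and CNN2 (0.45 each; 0.000665 and 0.000516), LATS1 (0.35; 0.0203), TPM1 (0.29; 0.00113), LATS2 (0.27; 0.00991) and CNN3 (0.27; 0.0033). CCN1 (-0.24; 0.0238), WWTR1 (-0.51; 0.000656), TEAD4 (-0.31; 0.00947), TAGLN2 (-0.45; 0.0181), TPM2 (-0.41; 0.00285) and TPM4 (-0.35; 0.00465) were the other members lower in H9. Leaving out 1 undifferentiated array ended several of these calls: CCN1 without H1 replicate 1 or 2 or H9 replicate 1 (0.0848, 0.0863 and 0.147), LATS1 without H1 replicate 2 or H9 replicate 1 (0.146 and 0.132), and LATS2 and TAGLN2 without replicate 1 of H1 (0.059 and 0.0973) or H9 (0.0571 and 0.103). TEAD4 lost its call without H1 replicate 1 (0.0546), and MYL9 without replicate 2 of H1 (0.0788) or H9 (0.0578). With all probe sets of a gene averaged, ACTA2 (-0.64; 0.0962), ACTG2 (-0.48; 0.137), AJUBA (0.0804), TPM2 (0.357), TPM4 (0.261) and LATS2 (0.604) were not called either.

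Between EB of the lines 11 members differed, 10 higher and 1 lower on the arrays labelled H9 EB, against 8% and 7.31% of all genes. MYL9 (0.62 ± 0.13; limma adjusted p = 0.0093), CCN2 (0.61 ± 0.067; 0.000349), AXL (0.49; 0.00415), VCL (0.43; 0.00112) and CCN1 (0.41; 0.00311) were highest above H1 EB, and LATS1 was lower (-0.34; 0.0375). The other 5 were WWTR1 (0.32), TEAD2 (0.22), TAGLN (0.33), TPM1 (0.25) and MYH10 (0.31). Leaving out H1 EB replicate 2 or replicate 1 of the arrays labelled H9 EB left 6 members higher, and leaving out any 1 of the 4 EB arrays ended the call of LATS1 (0.105 to 0.19). TEAD2 lost its call without any 1 of the 8 arrays other than those of undifferentiated H9, with adjusted p of 0.0531 to 0.268. WWTR1 and TAGLN lost theirs without H1 EB replicate 1 (0.117 and 0.0848), H1 EB replicate 2 (0.0603 and 0.156) or replicate 1 of the arrays labelled H9 EB (0.132 and 0.217). TPM1 lost its call without replicate 1 of H1 EB (0.0567) or of the arrays labelled H9 EB (0.0581), and MYL9 without replicate 2 of H1 EB (0.0719) or of the arrays labelled H9 EB (0.0797). ACTA2, which differed most between the undifferentiated lines, had a difference of 0.01 ± 0.089 in EB (0.968).

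Markers of other cell types moved in the same comparison. Of 6 smooth muscle markers not on the list, 3 passed the filter and 2 of these fell; their summed intensity was 609.3 to 649.3 in undifferentiated H1, 377 to 446 in H1 EB, 552 to 554 in undifferentiated H9 and 505.1 to 558.8 on the arrays labelled H9 EB. MYH11, the defining myosin of mature smooth muscle, was not above the array median on either array of undifferentiated H1, H1 EB or undifferentiated H9, nor were LMOD1 and CASQ2 in any group. The summed cardiac markers (4 of 5 on the array) were 249.8 to 385 in the undifferentiated groups and 717 to 935 in EB, with MYH6 not above the median in any group and 3 of 3 tested genes higher. Fibroblast markers summed to 14010 to 19380 and 32150 to 34480, 4 of 6 rising and THY1 falling. The part of these cell types, and of the endoderm markers given above, in the changes of the members was not tested.

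The other genes of the same pathways, from lists of known members and targets, did not all move as the members did. Of 20 tested further YAP and TEAD targets (22 listed), 14 rose and 4 fell. Their median change was 1.03, with a range of -1.11 to 3.33, in contrast to the falls of CCN1 and CCN2. MYOF, the membrane repair protein myoferlin, went from 259 and 288.5 to 2036 and 2002 in H1 and from 118 and 144 to 2069 and 2121 in H9. It rose by 3.33 ± 0.074 (log2; limma adjusted p = 2.49e-11). FJX1, a secreted relative of the Drosophila four-jointed protein, rose by 2.34 ± 0.052 (2.49e-11), from 437 and 442 to 2373 and 2529 in H1 and from 544 and 509 to 2577 and 2525 in H9. CCDC80, a secreted matrix protein, rose by 2.68 ± 0.093 (8e-10). All 3 separated the states in both lines. Of these targets 13 were higher and 4 lower without the arrays labelled H9 EB.

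Of 17 tested further SRF and MRTF targets (26 listed), 12 fell and 1 rose, with a median of -0.23. ACTA1, skeletal alpha actin, was at 1554 and 1493 in undifferentiated H1, 181 and 223 in H1 EB, 701 and 781 in undifferentiated H9, and 363 and 411 on the arrays labelled H9 EB. It fell by 1.87 ± 0.084 (log2; limma adjusted p = 6.74e-09), with -2.83 in H1 and -0.91 in H9, and the undifferentiated lines differed by -1.03 (H9 minus H1). MCL1, an anti-apoptotic protein, fell by 0.60 ± 0.036 (5.96e-08), and PDLIM7, a PDZ and LIM domain protein of actin fibres, was the gene that rose, by 0.97 ± 0.083 (1.15e-06). After quantile normalisation 4 of these targets were higher and 10 lower, and without a term for the line 1 was higher and 7 lower. With the arrays labelled H9 EB left out, 1 was higher and 9 lower.

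Of 22 tested Hippo regulators (25 listed), 10 fell and 7 rose, with a median of -0.14. WWC1 (KIBRA), which activates LATS kinases, fell by 0.75 ± 0.060 (7.09e-07), the TEAD cofactor VGLL3 fell by 0.84 ± 0.077 (2.14e-06) and the polarity gene SCRIB rose by 0.48 ± 0.048 (3.69e-06). Of 21 tested focal adhesion genes (22 listed), 9 fell and 8 rose, with a median of -0.19. PDLIM1 fell by 1.06 ± 0.036 (6.46e-10), the caveolin gene CAV1 by 1.21 ± 0.067 (3.62e-08), and the tensin gene TNS3 rose by 1.01 ± 0.041 (2.85e-09). Without the arrays labelled H9 EB, 4 Hippo regulators and 5 focal adhesion genes were higher, and 7 of each list were lower. Without a term for the line 6 Hippo regulators were lower, and with arrays centred 4 were higher. These lists were chosen with earlier results of these data known. They are described by their counts beside the 33.1% and 35.4% of all genes that were lower and higher.

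**Figure D5:**
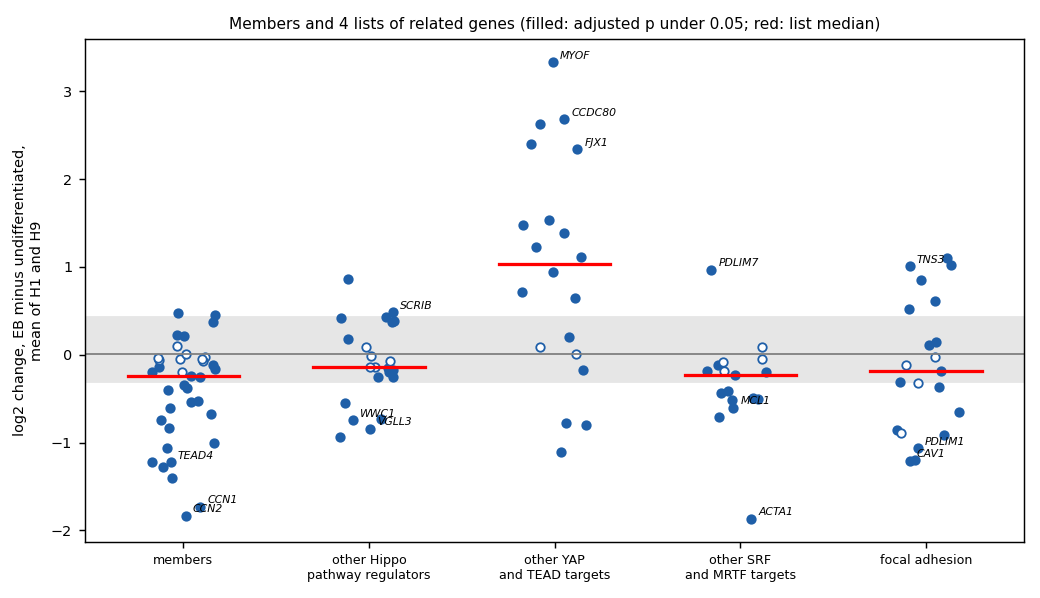
Log2 change in EB (mean of H1 and H9, y axis) of the 37 members and of 4 lists of related genes, 1 point per tested gene, filled where the limma adjusted p is under 0.05, with the list median in red and the 3 genes of smallest p named. The grey band spans the middle of all tested genes, from the first to the third quartile; the other YAP and TEAD targets have a median of 1.03 and the members one of -0.24.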

How the data were processed

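Total RNA (RNeasy, per the labels' protocols) was labelled with biotin and hybridised to 8 arrays. The deposited table holds linear intensities. MAS5 is the tool that the submitters' processing notes list, and its version is not given in the sources used here. Arrays carry no read depth, and their number limits the precision.

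The intensities were put on a log2(value + 16) scale with no further normalisation. Probe sets were named through the platform annotation: 41091 of 54675 had 1 gene symbol, 1801 several and 11721 none, and 62 were controls. Of these, 41043 matched a RefSeq gene ID and none needed a new symbol. Each gene was represented by its brightest probe set and kept if it was above the array median on at least 2 arrays. Group means were fitted over all 8 arrays with limma 3.58.1 (R 4.3.3; eBayes with trend and robust, 4 residual degrees of freedom), and p-values were adjusted by Benjamini-Hochberg over all 14056 genes, threshold 0.05. The fit was tested on simulated data. The pairing of replicate numbers was checked through the correlation of deviations from group means, which did not pair the arrays, so the replicate number was no term of the fit. Promoters came from RefSeq (GRCh38.p14).

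The alternatives were quantile normalisation, centring on array medians, another added constant, other filters, the mean of all probe sets, eBayes without trend and robust, the replicate block, no term for the line, only the arrays of 1 line, a minimum change of 1, leaving out each array, and a fit without the H9 EB pair. All members were named; from each related list at most the 3 tested genes with the smallest p were named. The result of 1 further related list is not reported here. The members and lists were chosen with earlier results of these data known. Endothelium and neuroectoderm markers were also read: the former summed to 2819 to 3628 in the undifferentiated groups and 2088 to 2407 in EB, with CDH5 not above the median in any group, and the latter to 636 to 1208 and 8485 to 10720.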

Additional observations from a re-analysis of the deposited data

Results flagged for a closer look

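The EB effect, H9 minus H1, was tested as an interaction (limma, 4 groups of 2 arrays, adjusted over all genes), and 16 members passed. The difference was positive for ACTA2 (1.67), ANKRD1 (1.66), ACTG2 (1.38), TAGLN (1.36), CCN2 (1.24), WWTR1 (0.83), CCN1 (0.64), AXL (0.50), TPM2 (0.47), MYH10 (0.45), TEAD2 (0.40) and VCL (0.38), on the log2 scale. ANKRD1 was not above the array median on any EB array, so its fitted value has no exact size. The difference was negative for LATS1 (-0.69), AJUBA (-0.50), CNN2 (-0.36) and CNN3 (-0.31). For CCN1, CCN2, TAGLN, ACTG2 and VCL the H1 fall was the bigger, for ACTA2, TPM2 and MYH10 the lines moved in opposite directions, and for CNN2 both lines fell and H9 fell further. Of these differences, 4 lost their call when 1 array was left out. AXL did so without H1 EB replicate 2 (adjusted p = 0.0513) or replicate 2 of the arrays labelled H9 EB (0.0562). CNN2 did so without H1 EB replicate 2 (0.0573) or replicate 1 of the arrays labelled H9 EB (0.0545). TPM2 did so without the latter (0.0509), and ANKRD1 as given above. With all probe sets of a gene averaged 5 differences were positive and 1 negative among those called. All 16 use the arrays labelled H9 EB, on which 5 genes that were dim in undifferentiated H9 had signal, and the part of this in the differences was not tested.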

How the results depend on the processing

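Across 37 members and 6 comparisons, 3990 values were recomputed under alternatives: 3750 kept direction and side of the threshold, 164 lost their call, 60 gained one and 16 changed sign with a call on either side. In the mean of both lines, ACTN1 (0.12) and MYH10 (0.16) turned positive after quantile normalisation, TPM2 (-0.18) turned negative with arrays centred on their medians, and without the H9 EB pair WWTR1 (-0.041), AJUBA (0.049), ACTA2 (-0.38) and TPM2 (-0.22) turned. With all probe sets averaged TPM2 (0.53) and ACTN1 (-0.29) turned in H1, MYH10 (-0.24) in H9, and LATS1 (0.18) and VCL (-0.069) in the interaction, LATS1 (-0.18) between undifferentiated lines and MYH10 (-0.003) between EB. Centring turned YAP1 (-0.078) and MYH10 (-0.051) in H9. Members called higher in the mean numbered 5 and became 3 with probe sets averaged, 3 without the H9 EB pair, 3 with centring and 2 without a term for the line. In H9, 6 higher became 3 with probe sets averaged, plain eBayes or centring. In the interaction, probe sets averaged gave 5 higher, 1 lower and 1646 genes in all (of 3195), and plain eBayes 2 lower and 2015 genes. Between undifferentiated lines, probe sets averaged gave 4 higher and 2322 genes (of 3686). Between EB of the lines, 1 lower became 2 after quantile normalisation and 0 without a filter, probe sets averaged gave 3 higher, 0 lower and 998 genes (of 2152), and plain eBayes 5 higher, 0 lower and 894 genes. The cause was not tested.

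A minimum change of 1 left 0 higher, 8 lower and 1945 genes in the mean, 0, 8 and 2004 in H1, 1, 6 and 2180 in H9, 5, 0 and 552 in the interaction, 0, 2 and 404 between undifferentiated lines, and 0, 0 and 154 between EB, by construction. Leaving out 1 array gave, in the mean, 5 to 5 higher, 21 to 22 lower and 9009 to 9321 genes. It gave 3 to 3, 21 to 25 and 6891 to 8301 in H1, 5 to 7, 15 to 18 and 7297 to 8612 in H9, and 10 to 12, 3 to 4 and 2031 to 3122 in the interaction. Between undifferentiated lines it gave 5 to 8, 7 to 11 and 2543 to 3367, and between EB 6 to 10, 0 to 1 and 717 to 2403. The lowest totals came without H1 EB replicate 1 (2031 in the interaction, 749 between EB) and replicate 1 of the arrays labelled H9 EB (2072 and 717); between EB, replicate 2 of either gave 925 and 928. A group left with 1 array is assumed to vary like the others. Samples of the same number did not deviate together (r of -0.0461 to 0.0542 over 6 pairs of groups). The replicate block gave 5 higher, 23 lower and 9542 genes in the mean and called ROCK2 in H9 (adjusted p = 0.0427). It ended the call of TEAD2 between EB of the lines (0.0505) and changed no other call of a member. ANKRD1 was not tested under the filter on the mean level. Signal over background limits ANKRD1, the only member not above the median on any EB array, and 2 arrays per group leave small changes such as those of TEAD1, TEAD2 and MYLK near the threshold.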
